A study of Homo sapiens with 18 samples.

Results

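The replication-dependent histone genes were taken as the protein-coding genes on chromosomes 6 and 1 with an H2AC, H2BC, H3C or H4C symbol and a number, together with H1-1 to H1-6. This rule gave 68 genes of 20037 protein-coding genes in the RefSeq annotation (GRCh38.p14). They comprised 6 H1, 17 H2A, 18 H2B, 13 H3 and 14 H4 genes, and they lay in 6 clusters. The largest cluster held 32 genes between positions 26017787 and 26285534 of chromosome 6, and 3 further clusters on this chromosome held 2, 5 and 16 genes. On chromosome 1, 11 genes lay between 149812370 and 149887965 and a single pair lay near 228457873.

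These genes supply the core histones H2A, H2B, H3 and H4 and the linker histone H1 that package newly made DNA. They are transcribed mainly in S phase, under the coactivator NPAT, and their short, mostly intronless transcripts end in a stem-loop bound by SLBP instead of a poly(A) tail. Many H2A and H2B genes stand head to head and share a short promoter between them. H3K4me3 marks the starts of active genes, and H3K27me3, laid down by PRC2, marks repressed ones.

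The marks were mapped by ChIP-seq in the V16D line, which was derived from LNCaP and grows as castration-resistant prostate cancer. V16D/CTL cells carried a control lentivector and V16D/H19 cells a lentivector overexpressing the lncRNA H19, on the same V16D background. Each group had 3 biological replicates, and each replicate was immunoprecipitated for H3K4me3 and H3K27me3 beside its own input, which gave 12 peak lists. Every value comes from cells in bulk, so a change in the share of cells in S phase and a change per cell cannot be told apart.

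The H3K4me3 lists held 20048 to 21934 peaks and the H3K27me3 lists 55060 to 72289. Peak height below is the fold over input (a linear ratio) that the peak caller gave the strongest peak within 1 kb of a gene start. All 8 luminal prostate markers examined (KLK2, KLK3, TMPRSS2, FKBP5, KRT8, KRT18, FOXA1 and HOXB13) carried an H3K4me3 peak in all 6 libraries, and the lymphocyte markers PTPRC and CD3E did in none. Of the other markers examined, 1 of 3 for fibroblasts (COL1A1) and 2 of 5 neuroendocrine ones (SYP and ENO2) also did in all 6. The marker starts therefore did not separate cell types cleanly. No peak of either mark lay in the H19 gene or within 10 kb of it, so its chromatin gave no check of the group labels. A start without a peak is called unmarked below, which does not prove that the mark is absent, since read depth was not used.

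Promoter sequences show what the members share and where they differ. RefSeq (GRCh38.p14) gave a promoter, 250 bases before to 50 after the start, for 63 of the 68 genes. H4C1, H4C3, H2AC12, H3C11 and H3C12 had none. The 250 bases before the start are printed 5′ to 3′ for 6 genes. H2AC4 was chosen as the member with the largest listed H3K4me3 difference, H2AC14 for the lowest peak, H4C11 and H4C12 as near-identical copies of which the first has the highest peak and the second has none, and H2BC1 and H1-6 as testis-expressed members without a peak. Capitals mark a TATA box (TATAAA or TATAAG on the gene strand), a CCAAT box (CCAAT on either strand, so also ATTGG) and the octamer ATTTGCAT (either strand, so also its reverse complement), of which the octamer is bound by the factor POU2F1. The motifs as searched do not hold each other.
H2AC4: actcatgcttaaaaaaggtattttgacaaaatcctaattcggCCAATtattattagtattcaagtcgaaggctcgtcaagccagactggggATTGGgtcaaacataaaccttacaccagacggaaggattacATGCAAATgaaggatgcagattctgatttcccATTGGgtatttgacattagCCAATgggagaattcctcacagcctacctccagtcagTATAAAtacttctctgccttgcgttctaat
H2AC14: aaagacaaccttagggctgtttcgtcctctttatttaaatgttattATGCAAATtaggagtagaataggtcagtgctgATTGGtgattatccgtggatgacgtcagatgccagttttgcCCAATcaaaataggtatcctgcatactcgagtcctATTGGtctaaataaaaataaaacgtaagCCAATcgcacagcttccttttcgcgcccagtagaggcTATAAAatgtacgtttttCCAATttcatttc
H4C11: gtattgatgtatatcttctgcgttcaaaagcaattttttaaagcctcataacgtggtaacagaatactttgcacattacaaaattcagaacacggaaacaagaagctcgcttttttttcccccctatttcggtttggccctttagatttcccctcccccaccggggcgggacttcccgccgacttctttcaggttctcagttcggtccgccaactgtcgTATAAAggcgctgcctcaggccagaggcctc
H4C12: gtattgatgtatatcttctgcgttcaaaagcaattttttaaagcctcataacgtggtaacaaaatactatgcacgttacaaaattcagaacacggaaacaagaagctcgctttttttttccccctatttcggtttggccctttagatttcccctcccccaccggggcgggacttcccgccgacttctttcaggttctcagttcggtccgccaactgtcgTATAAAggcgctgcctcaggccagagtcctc
H2BC1: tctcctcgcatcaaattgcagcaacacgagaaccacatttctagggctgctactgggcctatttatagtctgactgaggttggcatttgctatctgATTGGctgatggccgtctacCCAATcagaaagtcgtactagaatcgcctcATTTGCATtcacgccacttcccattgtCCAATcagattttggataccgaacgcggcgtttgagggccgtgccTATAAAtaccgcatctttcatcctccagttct
H1-6: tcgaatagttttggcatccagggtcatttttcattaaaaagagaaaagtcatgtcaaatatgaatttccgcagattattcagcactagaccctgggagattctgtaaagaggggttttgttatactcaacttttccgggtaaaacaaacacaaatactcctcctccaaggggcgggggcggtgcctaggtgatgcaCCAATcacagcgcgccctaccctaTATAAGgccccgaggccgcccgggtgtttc

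The windows are chr6:26033619-26033868 (minus strand) for H2AC4, chr6:27814778-27815027 (minus strand) for H2AC14, chr6:27823842-27824091 (plus strand) for H4C11, chr6:27831561-27831810 (minus strand) for H4C12, chr6:25726527-25726776 (plus strand) for H2BC1 and chr6:26108136-26108385 (minus strand) for H1-6. The H2AC4 stretch held 4 CCAAT boxes, 1 octamer and 1 TATA box, and that of H2AC14 held 5, 1 and 1. Those of H4C11 and H4C12 held a TATA box but no CCAAT box or octamer. The testis-expressed H2BC1 held 3 CCAAT boxes, 1 octamer and 1 TATA box, so this combination was present at a start without an H3K4me3 peak.

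Over all 63 promoters of 300 bases, 46 (73.0%) held a TATA box, against 9.75% of 15843 protein-coding promoters in the same table. A CCAAT box was found in 54 (85.7%), against 36.4%, and the octamer in 26 (41.3%), against 1.72%. The motifs followed the families. All 6 H1, 16 H2A, 18 H2B and 11 H3 promoters held a CCAAT box but 3 of 12 H4 promoters did. The octamer was found in 11 of 16 H2A and 14 of 18 H2B promoters, in 1 of 11 H3 promoters (H3C4, whose annotated gene start is that of H2AC7), and in no H1 or H4 promoter. The promoters had a median GC content of 43.0% and 11 CpG dinucleotides, against 62.7% and 22 for all genes.

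**Figure D1:**
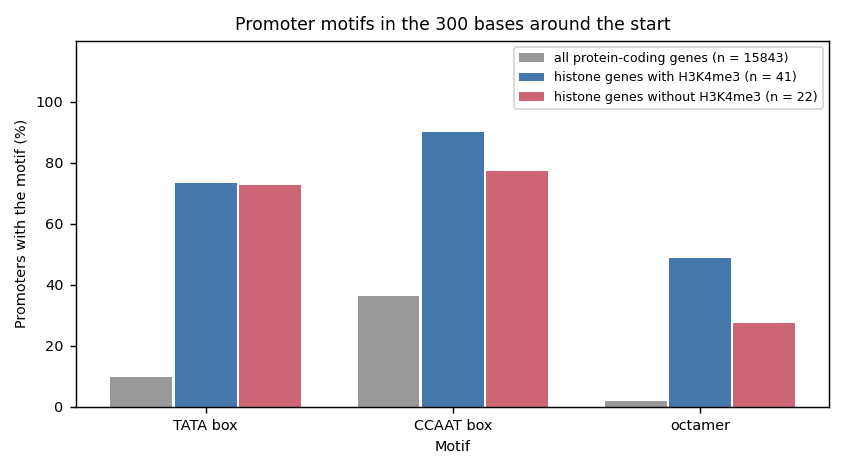
Share of promoters (%, y axis) with a TATA box, a CCAAT box or the octamer in the 300 bases around the start, for all protein-coding genes, for histone genes with an H3K4me3 peak in all 6 libraries and for those with none. Both histone groups stand above all genes for each motif, and their TATA shares are 73.2% and 72.7%. The CCAAT box and the octamer are less frequent in the group with no peak. Their shares are 90.2% against 77.3% for the CCAAT box and 48.8% against 27.3% for the octamer. The motifs followed the families, which were not matched between the histone groups, and no test was made.

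H3K4me3 was found at the starts of most members in both groups. A peak lay within 1 kb of the start of 45, 46 and 46 of the 68 genes in V16D/CTL, compared with 45, 45 and 45 in V16D/H19. The same 45 genes (66.2%) had a peak in all 6 libraries, against 60.8% of the 19675 protein-coding genes with a known strand, and 22 (32.4%) had none in any library, against 35.8%. The start itself lay under a peak of at least 1 library in 40 of the 45. A single gene, H3C12, differed between libraries. Its start had a peak in V16D/CTL replicates 2 and 3 only, where the edge of the peak over H2AC17 and H2BC17 came to within 924 bases, so its count of libraries describes the reach of a neighbour's peak.

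**Figure D2:**
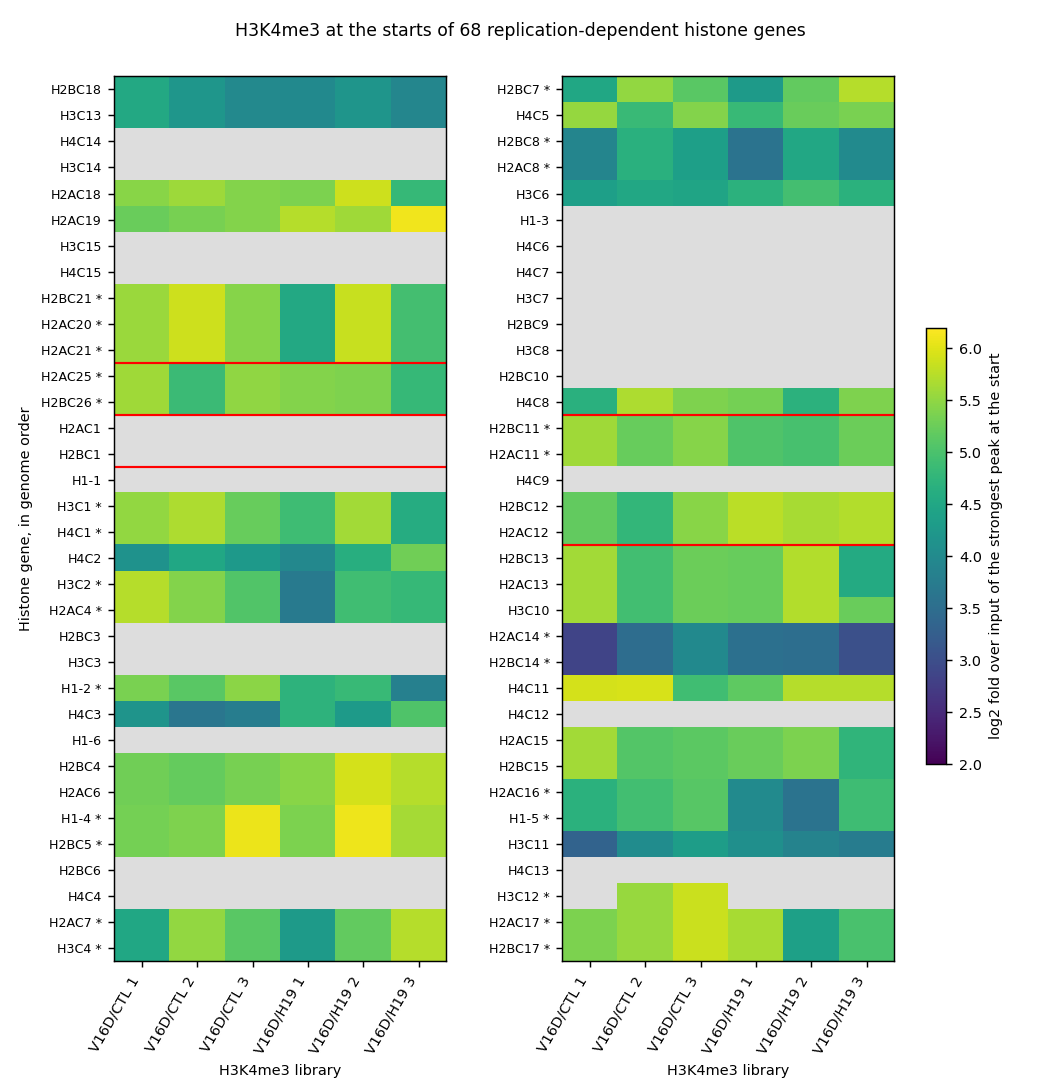
Height of the strongest H3K4me3 peak (log2 fold over input, colour) within 1 kb of the start of each of the 68 genes in genome order (rows) in the 6 libraries (columns), grey where there is no peak. Red lines separate clusters, an asterisk marks a gene at a site in the deposited table of differential H3K4me3 sites, and the same 45 genes are coloured in every library.

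The linker histone genes split evenly. H1-2, H1-4 and H1-5 had a peak in all 6 libraries, with median heights of 31.8, 45.7 and 27.8. H1-1, H1-3 and the testis-expressed H1-6 had none, and the nearest H3K4me3 peak lay 2235, 9618 and 3237 bases from their starts. All 3 unmarked H1 promoters held both a TATA and a CCAAT box.

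Of the H2A and H2B genes, which encode the histones that pair in the nucleosome, 16 of 17 and 13 of 18 were marked. Of 12 head-to-head H2A and H2B pairs, whose starts lay 194 to 248 bases apart, 11 had a peak at both starts in all 6 libraries. The exception was H2AC1 with H2BC1, a testis-expressed pair that stands alone on chromosome 6, with the nearest peak 74411 bases from H2AC1. At this spacing a peak at either start of a pair nearly always falls in the 1 kb window of the other. The shared state of a pair therefore follows from the window. Of the 11 H2A and H2B genes outside such pairs, 7 were marked and 4 were not (H2BC3, H2BC6, H2BC9 and H2BC10).

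Of the H3 and H4 genes, 7 of 13 and 6 of 14 were marked, and a further H3 gene was H3C12. The unmarked H3 genes were H3C3, H3C7, H3C8, H3C14 and H3C15. The unmarked H4 genes were H4C4, H4C6, H4C7, H4C9, H4C12, H4C13, H4C14 and H4C15. H4C13 lay just outside the 1 kb window, with a peak edge 1018 bases from its start, and each of the other 21 unmarked genes was more than 2 kb from a peak. Among marked genes near the limit, H2AC18 and H2AC19 were 575 and 571 bases from a peak edge, H3C13 225, H2BC18 105 and H4C11 73.

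Within the large cluster the unmarked genes included a continuous run. H1-3, H4C6, H4C7, H3C7, H2BC9, H3C8 and H2BC10, at positions 26234987 to 26272931 of chromosome 6, had no peak in any library. The stretch of 58.4 kb between the peak at H3C6 and the peak at H4C8, both present in 6 libraries, held no H3K4me3 peak in any of the 6 lists. The promoters of these 7 genes were no copies of others: the closest match of any among the 63 promoters was 69.0% identical (H3C8 with H3C3).

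Near-identical copies were a different case. Promoters at least 95% identical over 300 bases formed 4 pairs, H2AC18 with H2AC19 (99.7%), H3C14 with H3C15 (98.7%), H4C14 with H4C15 (100%) and H4C11 with H4C12 (98.3%). None of these 8 starts lay under a peak of any library, compared with 40 of the other 60. H2AC18, H2AC19 and H4C11 were marked only by peaks beside the start. At H4C11 the peaks of the 6 libraries merged into 2 sites, 27823327 to 27824019 and 27824264 to 27825820, with the start at 27824092 in the gap. How reads that map to more than one copy were counted is not given in the sources used here, and the part of this in the missing peaks was not tested, so the state of these 8 genes is uncertain.

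Marked members had a lower median height and a longer median peak than other genes. The median height over the 45 genes, each taken as the median of 6 libraries, was 37.8 (range 11.3 to 53.3), against 48.4 for 11926 other genes with a peak in all libraries. Of these other genes 25.2% lay below the histone median. The median peak length was 2902 bases (352.5 to 5820), against 2075, and 83.0% of other genes were below it. The summit of the strongest peak lay on the gene side of the start for 30 of 45 members (66.7%) and for 82.1% of other genes. In a head-to-head pair with a shared peak, as in the 11 marked H2A and H2B pairs, it cannot lie on the gene side of both starts. These shares can therefore not be compared directly. Genes that share a peak repeat its values, so the 45 genes are not 45 independent points and no test was made.

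**Figure D3:**
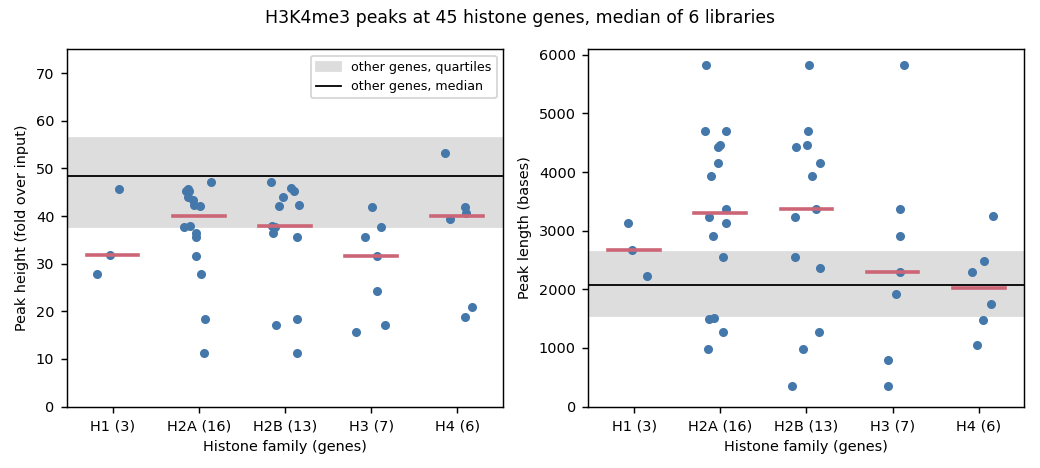
Height (fold over input, left) and length (bases, right) of the H3K4me3 peak at 45 histone genes by family, each point a gene as its median over 6 libraries, with a red bar at the family median. The grey band and black line are the quartiles and the median of 11926 other genes. The H1, H2A and H2B medians for length, 2678, 3306 and 3375 bases, lie above the band.

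H4C11 had the highest peak, with 60.8, 61.3 and 30.1 in V16D/CTL against 35.9, 53.3 and 53.3 in V16D/H19. It was followed by H2BC12 and H2AC12 (median 47.2), H2BC5 (45.9) and H1-4 (45.7). The strongest peak at H2BC5 was also that of H1-4 in every library but V16D/CTL replicate 2 (42.1 and 41.8), so these genes share a height. The lowest was at the pair H2AC14 and H2BC14, with 7.25, 11.3 and 16 in V16D/CTL against 11.7, 11.4 and 8.11 in V16D/H19. H3C11 (15.6) and the neighbours H2BC18 and H3C13 (17.1) came next. The replicates of either group spread widely, and these orders hold between the top and the bottom but not between neighbours in the list.

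The widest peak covered H2AC7, H3C4 and H2BC7, with a median of 5820 bases. The narrowest, at H2BC18 and H3C13, had a median of 352.5 bases, and that at H3C11 793 bases. H3C4 shares its annotated start with H2AC7, and its other RefSeq start, 2007 bases away, also had a peak in 6 libraries, so the marks of these genes cannot be separated.

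H3K27me3 was found at no member. No H3K27me3 peak lay within 1 kb of any of the 68 starts in any of the 6 libraries, while 9.12% to 11.5% of protein-coding starts had one per library. No member start therefore had peaks of both marks, the state called bivalent. The nearest H3K27me3 peak to a member lay 7460 bases from H2BC26, and on chromosome 6 the distance was at least 45609 bases. The unmarked run from H1-3 to H2BC10 and the testis-expressed genes were equally without it. No H3K27me3 peak of any library lay within the span of any of the 6 clusters.

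The effect of H19 on height was examined at the merged H3K4me3 sites with a peak in all 6 libraries, 15811 in all, of which 28 lay within 1 kb of 46 member starts. In the limma fit of centred log2 folds, 0 of the 28 sites passed an adjusted p of 0.05, as did 0 of all 15811 (0.00%). At an unadjusted p under 0.05 there were 4 of the 28 and 1049 of all sites (6.63%). The log2 difference (V16D/H19 minus V16D/CTL) was negative at 20 of the 28 (71.4%), against 52.0% of all sites, with a median of −0.16 against −0.02. The sign turned over the 7 histone sites above the median fold of all sites, of which 3 were negative, with a median of 0.05. The count fell to 17 without centring of the libraries. Without V16D/H19 replicate 3 the histone median was −0.07 over 29 sites, of which 17 were negative. The standard error of a single site's difference had a median of 0.32 over the 28, so most single differences were within the replicate error, and 0 calls does not show that heights were equal.

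The largest difference was at the site over H3C2 and H2AC4. Its heights were 53.2, 43.0 and 33.2 in V16D/CTL against 13.3, 30.1 and 28.1 in V16D/H19, so the groups did not overlap, and the log2 difference was −0.97 ± 0.34 (SE, n = 3 per group) with a limma adjusted p of 0.618. At H1-2, a linker histone gene, the heights were 40.7, 34.9 and 44.5 in V16D/CTL against 26.2, 28.6 and 14.2 in V16D/H19. The groups were again apart, with a log2 difference of −0.90 ± 0.33 and a limma adjusted p of 0.628. These were the only 2 of the 28 sites with V16D/H19 wholly below V16D/CTL, against 4.63% of all sites.

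In 5 of the 28 sites all V16D/H19 heights were above all V16D/CTL heights, against 6.84% of all sites. These were H4C3, H2BC12 with H2AC12, H2AC19, H2BC4 with H2AC6, and H3C6. H2AC19 is a near-identical copy of H2AC18, whose site had a log2 difference of −0.19, so its difference cannot be read alone. At H4C3 the heights were 18.1, 12.5 and 13.8 in V16D/CTL against 26.3, 19.6 and 32.9 in V16D/H19, a log2 difference of 0.77 ± 0.33 with a limma adjusted p of 0.694. At H2BC12 and H2AC12 they were 36.5, 27.6 and 43.9 against 54.2, 50.4 and 52.4, a difference of 0.52 ± 0.30 with a limma adjusted p of 0.796. After the libraries were centred on their medians, 3 sites were wholly above, against 5.58% of all sites, and 2 wholly below, against 6.40%.

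**Figure D4:**
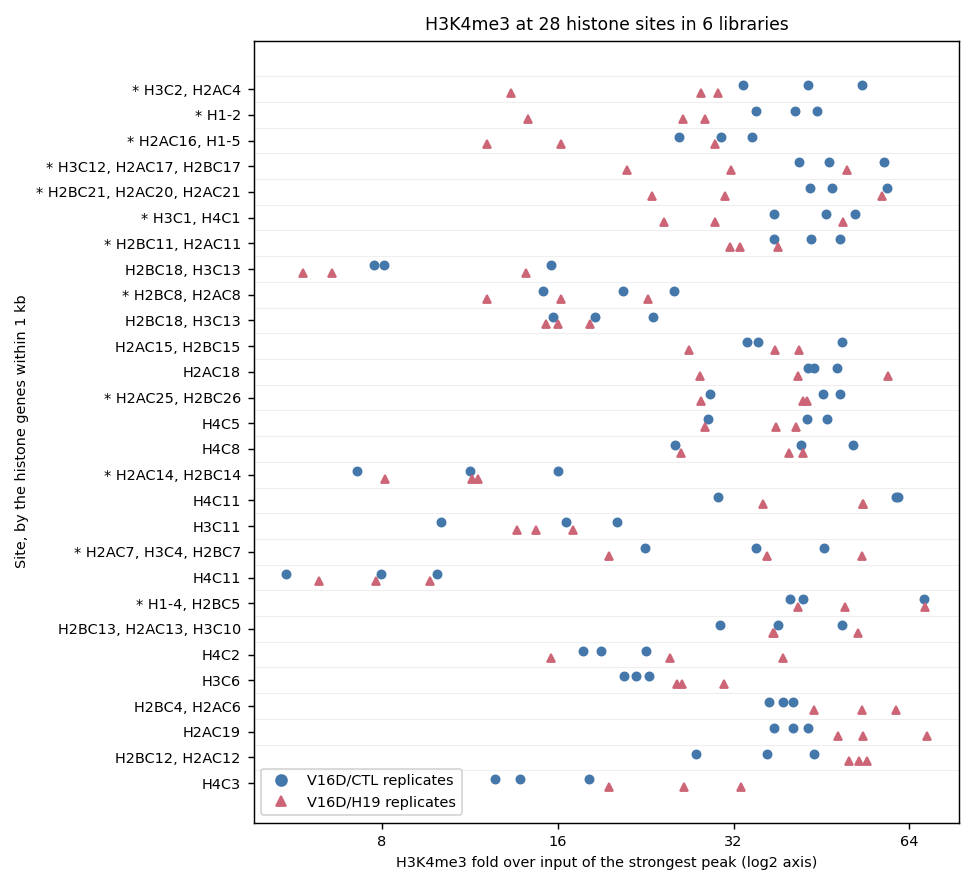
Height of the strongest H3K4me3 peak (fold over input, log2 axis) in each V16D/CTL library (circles) and V16D/H19 library (triangles) at the 28 sites, ordered from the most negative log2 difference at the top. An asterisk marks a site listed in the deposited table, and the 2 sites with V16D/H19 wholly below V16D/CTL, H3C2 with H2AC4 and H1-2, are the top rows.

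In the deposited table of differential H3K4me3 sites, every histone site was lower in V16D/H19. It lists sites that the authors called from read counts at a false discovery rate up to 0.05, with a concentration per group (the mean normalized read count on the log2 scale). Of the 46 members with a site, 26 (56.5%) lay within 1 kb of a listed site, and at all of them the concentration was lower in V16D/H19. Over all 12499 protein-coding starts with an H3K4me3 site, 8.54% were at a site listed lower and 2.30% at one listed higher. The 26 genes lay at 12 sites, so they are 12 observations, and neighbours that share a site share its call. By site, 12 of the 28 histone sites with a peak in all 6 libraries (42.9%) were listed lower, against 8.31% of all such sites. The listed site covered the start itself at 25 of the genes, all but H3C12.

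The mean concentration over H3C2 and H2AC4 was 9.05 in V16D/CTL against 8.34 in V16D/H19, a log2 difference of −0.71. At H2AC14 and H2BC14, the pair with the lowest peak, it was 6.8 and 6.12 (−0.68). At H2BC11 and H2AC11 it was 9.31 and 8.72 (−0.59). These were the 3 largest differences among the 12.

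At H2BC8 and H2AC8 the concentrations were 8.19 and 7.67 (−0.52), and at H3C1 and H4C1, which encode core histones H3 and H4, 9.04 and 8.62 (−0.42). The marked linker histone genes were also listed, H1-2 with 9.03 and 8.63 (−0.40), H1-5 at a site shared with H2AC16 with 8.90 and 8.55 (−0.35), and H1-4 at a site shared with H2BC5 with 9.99 and 9.75 (−0.24). The 3 marked H1 genes were thus at listed sites. Peak height was not lower at all of them. Its log2 difference was −0.90 at H1-2, −0.79 at the H1-5 site and 0.05 at the H1-4 site.

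The other 4 sites were those over H2AC7, H3C4 and H2BC7 (10.41 and 10.03), H2AC25 and H2BC26 on chromosome 1 (9.86 and 9.52), H2AC17, H2BC17 and H3C12 (9.92 and 9.59), and H2BC21, H2AC20 and H2AC21 on chromosome 1 (10.32 and 10.08). The median difference over the 12 was −0.39, against −0.37 over all 1412 sites listed lower. The table gives no replicate values, so no SD can be given for these means. The standard error in the fit of peak heights (median 0.32 over the 28 sites) belongs to another measure. It gives no error for these differences of −0.71 to −0.24.

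**Figure D5:**
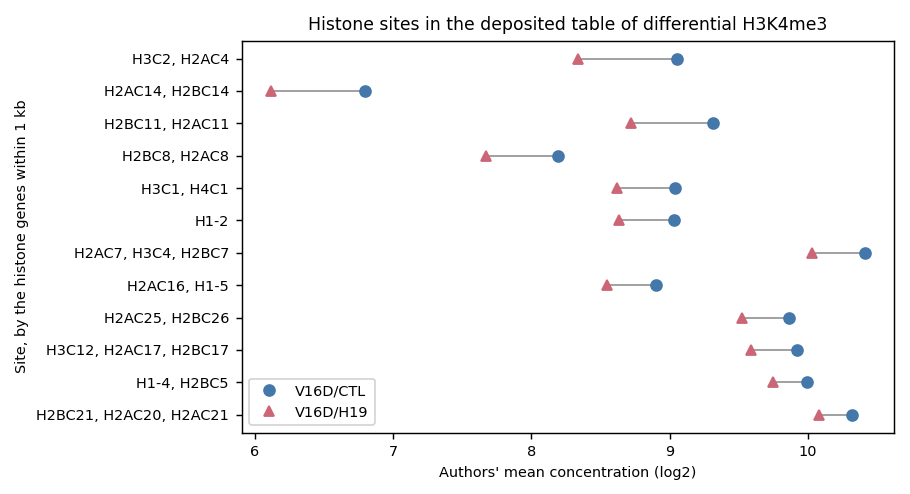
Authors' mean concentration (log2 scale) in V16D/CTL (circles) and V16D/H19 (triangles) at the 12 listed sites within 1 kb of a histone gene start. The V16D/H19 value is the lower at all 12, with log2 differences of −0.71 to −0.24.

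Site strength and length were set beside the listing. Of the 1857 sites in the table, 76.0% were lower in V16D/H19, and of 1109 sites with a concentration of at least 8 in either group 88.4% were, which included 11 of the 12 histone sites. A length limit was set at the median over member genes, 3584 bases, after the values were seen. At sites at least this long, 21.0% of protein-coding starts were listed lower. Of the members at such sites, 15 of 23 were (65.2%). Members that share a site share its length and its call, so these are not 23 independent observations, and sites with several genes weigh more. Peak heights from the same libraries are not independent evidence. In them 11 of the 12 listed sites, all but that of H1-4, were lower in V16D/H19 (median log2 difference −0.44). Of the 16 unlisted sites 9 were (median −0.03).

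The listed genes were counted by family and cluster. Of the members with a site, they comprised 3 of 3 H1, 10 of 16 H2A, 8 of 13 H2B, 4 of 8 H3 and 1 of 6 H4 genes. By cluster they numbered 12 of all 32 genes in the largest, 2 of 5, 7 of 16 and 0 of 2 (the unmarked H2AC1 and H2BC1) in the others on chromosome 6, and 3 of 11 and 2 of 2 on chromosome 1. No member was at a site in the deposited table of differential H3K27me3.

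Histone genes outside the clusters were compared. Of 11 replication-independent histone genes examined, many of whose transcripts are polyadenylated and also made outside S phase, 10 had an H3K4me3 peak in all 6 libraries and none had an H3K27me3 peak. Of the 10, 6 were listed lower in V16D/H19, against 8.54% of all starts (H1-10, H2AJ, H2AX, H2AZ1, H2AZ2 and CENPA, of which CENPA encodes the centromeric H3) and none higher. Site length was not matched here, and at sites of at least 3584 bases 21.0% of starts were listed lower. At H2AJ the concentrations were 8.05 and 7.33, and at H2AZ1, which encodes H2A.Z, 9.85 and 9.66. Peak heights did not follow the listing here, since the mean log2 height was higher in V16D/H19 at 4 of these 6 genes (H1-10, H2AX, H2AZ1 and H2AZ2). At H2AZ2 the heights were 44.5, 32.4 and 47.1 in V16D/CTL against 74.2, 69.5 and 63.2 in V16D/H19, with no overlap.

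All 20 genes of histone gene transcription and histone mRNA processing (such as NPAT, SLBP, CASP8AP2 and LSM11) had an H3K4me3 peak in all 6 libraries. GON4L and SYMPK also had an H3K27me3 peak, in 4 and 3 libraries. Heights in V16D/H19 were wholly above V16D/CTL at 3 of the 20 (NPAT, HINFP and CSTF2), against 6.84% of all sites, and wholly below at 1 (LSM10), against 4.63%. Only CCNE2, a cyclin of the entry into S phase, was at a listed site among these 20, with concentrations of 10.46 and 10.21. This is 1 of 20, against the 8.54% of all starts listed lower.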

How the data were processed

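H3K4me3 and H3K27me3 were mapped by ChIP-seq in 3 V16D/CTL and 3 V16D/H19 replicates, with inputs (18 samples), and groups were taken from the sample titles. The authors called peaks per library with MACS2 at default settings against the input of that replicate, narrow for H3K4me3 and broad for H3K27me3, on hg38 per the labels. The aligner is not given in the sources used here. The deposited lists give per peak a fold over input (a ratio), the −log10 of p and q and, for narrow peaks, the summit position. The deposited tables of differential sites, made by the authors with DiffBind and ChIPseeker, hold log2 concentrations, used here, and the authors' own fold, p-value and FDR, not used.

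The histone genes and lists were chosen with earlier results of these data known. Gene starts are RefSeq 5′ ends. The strand came from RefSeq for 63 members and from GENCODE, by symbol, for 5. Peaks sharing a base were merged into sites, and the strongest peak per library gave its value. Sites with a peak in all 6 libraries were compared on log2 folds, centred on each library's median, with limma 3.58.1 (R 4.3.3, trended variance) and Benjamini-Hochberg adjustment, tested on simulated data. A few genes of the lists are not reported here. A start was called at a site for the listing when at least 2 libraries had a peak in it. Promoters were aligned with Biopython 1.88. Alternatives were another window (500 bases, 2 kb), a −log10 q of at least 5, lists of equal length, no centring, quantile normalization, mean peak height, sites in 5 libraries, a replicate block and each replicate left out. Genes named were those lacking a peak in a library, at a listed site, highest or lowest, widest or narrowest, copied or testis-expressed. No count test was run, since the lists hold ratios, and depth was not used.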

Additional observations from a re-analysis of the deposited data

How the results depend on the processing

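Of 72 values recomputed under alternatives, 63 stayed within their limits, 8 moved and 1 changed sign. The 45 starts with H3K4me3 (42 without the 8 near-identical copies, an alternative chosen after seeing the data) and the 0 starts with H3K27me3 kept their counts within 1.5 times under every window and threshold run. Calls over all H3K4me3 sites were 0 but for 1 with mean peak height, and leaving out a replicate gave 0 to 0. Calls over all H3K27me3 sites, none at a member, were 3 without centring, 2 with the replicate block and 0 to 2 with a replicate left out. The median log2 difference over histone sites was 0.0497 over the 7 sites above the median fold, and −0.176 to −0.0749 (without V16D/H19 replicate 3) with a replicate left out. Members at listed sites were 13 by the symbols of the table and 15 at wide sites, the latter chosen after seeing the data. The cause of these changes was not tested, except that the settings for sites above the median fold, table symbols and wide sites leave fewer sites or genes.

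The replicate block gave 0 H3K4me3 calls and the same histone median of −0.16. Deviations of same-numbered libraries correlated at −0.000849 to 0.026 for H3K4me3 and −0.00937 to 0.00892 for H3K27me3. Not every library correlated best with its own number, though V16D/H19 replicates 2 and 3 did for H3K4me3. Correlations this small do not settle whether the shared numbers paired the libraries. Peak height is a summit ratio without read counts, which limits the size of change that 3 replicates per group can show.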

Other observations

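Sites near the clusters but at no histone start were looked up in the deposited table of differential H3K4me3. Sites of the peak lists (a peak in at least 2 libraries) and listed sites were counted separately and not matched to each other. Within 100 kb of the 32-gene cluster on chromosome 6, 9 peak sites and 3 listed sites lay at no histone start. The 3 listed sites were each lower in V16D/H19. A pair of these listed sites is annotated in the table to H4C8 (HIST1H4H), at 26311041 to 26314476 and 26320731 to 26323170. Their concentrations were 8.68 and 8.07 in V16D/CTL against 8.39 and 7.71 in V16D/H19. Neither lies within 1 kb of a member start, and the H4C8 start itself was at no listed site. Around the 16-gene cluster there were 8 such peak sites and 0 listed sites, and around the 5-gene cluster 11 and 1. On chromosome 1 the counts were 5 peak sites and 0 listed sites around the 11-gene cluster, and 2 and 1 around the single pair. Over all fitted sites, which have a peak in all 6 libraries and so are another set, 8.31% were listed lower.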
